A study of Mus musculus with 2 samples.

Results

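Cycling oligodendrocyte precursors were described in single-cell RNA sequencing of the lateral striatum after stroke in young mice. Male C57/BL6 mice had the middle cerebral artery occluded for 60 minutes on postnatal day 10 (MCAO), and tissue was taken after 2 weeks of reperfusion. Cells that carried A2B5 and/or O4 on their surface were sorted and gave 1 ipsilateral library, from the side of the occlusion, and 1 contralateral library, from the other hemisphere of operated mice; striata of 3 animals were pooled in each. The contralateral side is not tissue of an unoperated animal, and with 1 library a side no test between sides was possible. Intervals are 95% intervals and cover counting error only; the pooled animals cannot be told apart.

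A precursor was a barcode with at least 500 detected genes and at most 15% mitochondrial UMIs, the tags by which captured RNA molecules are counted. Per 10000 UMIs it had at least 5 of Pdgfra, Cspg4 and C1ql1 together, under 10 of Gpr17, under 5 of Enpp6 and Tcf7l2, and under 40 of Mobp, Mog and Mal. Cycling cells were chosen by at least 3 raw UMIs of Mki67 and Top2a together. The rule found 73 cycling precursors, 48 ipsilateral and 25 contralateral, among 586 precursors and 4841 barcodes in all. Levels are UMIs summed over the cells of a class and given as CPM, counts per 1000000 UMIs of that class. The cycling precursors held 994903 UMIs in the ipsilateral and 405650 in the contralateral library, and the floor of 3 UMIs set for a gene with a count of 0 corresponds to 3.02 and 7.40 CPM.

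Oligodendrocyte precursors are the cells from which myelinating oligodendrocytes arise, and they keep dividing after birth. They carry the receptor PDGFRα, which passes on the mitogenic signal of PDGF, and the proteoglycan NG2, encoded by Cspg4. Notch signalling, read out by the repressors HES1 and HES5, holds them undifferentiated, and they leave the cycle as they commit to myelination. A2B5 is a ganglioside antigen of early precursors and O4 a sulfatide antigen of later ones. Mki67 encodes the proliferation antigen Ki-67 and Top2a the topoisomerase that untangles DNA before chromosomes separate.

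The genes that chose the cells had the levels that follow. Pdgfra stood at 861 CPM in ipsilateral cycling precursors against 1142 CPM in ipsilateral non-cycling ones, and at 1141 against 1228 CPM in the contralateral library. Cspg4 was at 389 CPM in cycling against 504 CPM in non-cycling cells ipsilaterally and 399 against 591 CPM contralaterally, cycling cells first. C1ql1, a secreted protein of the complement C1q family, was at 632 CPM in cycling against 1334 CPM in non-cycling cells ipsilaterally and 537 against 1405 CPM contralaterally. All 73 cells had UMIs of each of these 3 genes, and all 3 were lower in the cycling than in the non-cycling precursors of both libraries. Mki67, by contrast, had 480.4 and 478 CPM in ipsilateral and contralateral cycling precursors against 4.84 and 2.11 CPM in non-cycling ones, and Top2a 1070 and 1018 against 11.0 and 8 CPM. These values describe the rule and do not bear on the label. Of the 29 genes of the OPC list, 26 were not used by the rule, and none was at 0 in the cycling cells of either library. Olig1, a transcription factor of the oligodendrocyte lineage, was at 1991 CPM in ipsilateral and 1935 CPM in contralateral cycling precursors.

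Cycling precursors were 14.6% of the ipsilateral precursors (48 of 329, exact binomial interval 11.0% to 18.9%) and 9.73% of the contralateral precursors (25 of 257, 6.40% to 14.0%). The ipsilateral precursors held more UMIs each, with a median of 12640 against 10073. With each precursor thinned to 6814 UMIs the shares were 12.2% (37 of 303, 8.75% to 16.4%) ipsilaterally and 6.70% (15 of 224, 3.80% to 10.8%) contralaterally, 26 and 33 shallower precursors being left out. The intervals of the sides overlapped before and after thinning. Precursors with any UMI of Mki67 or Top2a, which include cells under the cut and are not adjusted for depth, were 28.9% (24.0% to 34.1%) of ipsilateral and 16.7% (12.4% to 21.9%) of contralateral precursors, and these intervals did not overlap. Among barcodes marked as mature oligodendrocytes the shares with any UMI were 11.85% and 15.11%, the second within the interval of the contralateral precursors. In those mature-marked barcodes, which should not divide, 0.395% (4 of 1013) of ipsilateral and 0.719% (4 of 556) of contralateral cells had 3 or more of these UMIs, at medians of 28603 and 27743 UMIs per cell.

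**Figure D1:**
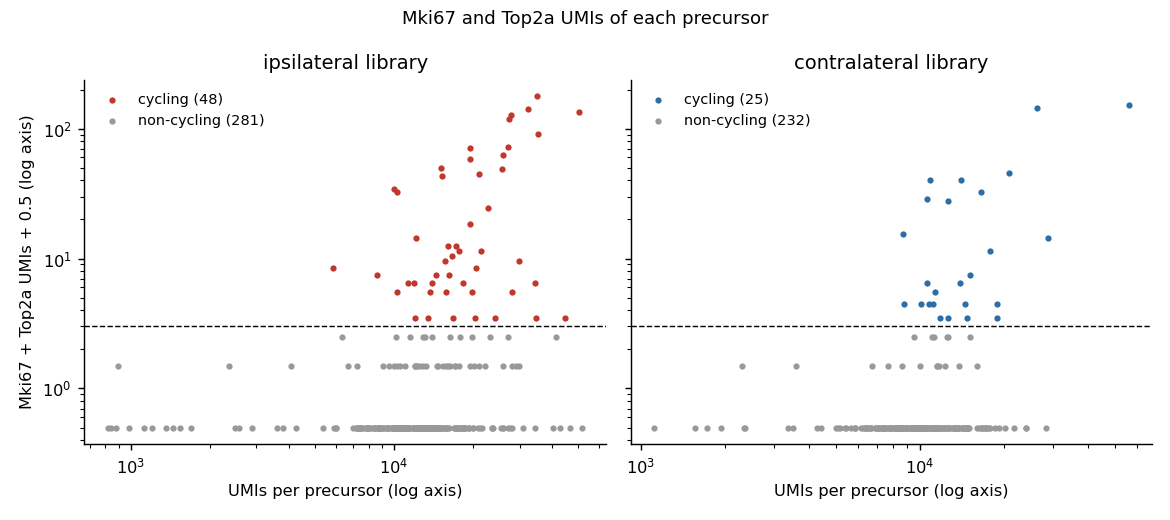
Mki67 and Top2a UMIs, plus 0.5, against all UMIs of each precursor, on log axes, in the ipsilateral (left) and contralateral (right) library; coloured points are cycling and grey points non-cycling precursors, and the dashed line separates cells with 2 UMIs from cells with 3. Most precursors hold 0 of these UMIs, 234 ipsilateral and 214 contralateral, and the cycling cells spread up to 177 and 151 UMIs.

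The cut fell where few precursors lay, but not at a gap. Just under it, 12 ipsilateral and 6 contralateral precursors had 2 UMIs, and just above it 7 and 4 had 3. At 3 to 7 UMIs stood 20 of the 48 ipsilateral and 14 of the 25 contralateral cycling cells, at 8 or more 28 and 11, and at 20 or more 17 and 8. Some precursors under the cut still carried S phase genes: 10 of 281 ipsilateral and 3 of 232 contralateral non-cycling precursors had at least 100 UMIs per 10000 of the S phase list, against 28 of 48 and 13 of 25 cycling ones, a level chosen after the values were seen.

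The cycling precursors held more UMIs than the rest, with a median of 18833 UMIs per cell against 12195 in non-cycling precursors ipsilaterally, and 13882 against 9674.5 contralaterally. Median mitochondrial shares were 5.11% against 4.88% and 4.24% against 4.51%. Of all barcodes, 2505 of 2775 ipsilateral and 1913 of 2066 contralateral ones passed the filter, and no barcode was shared between libraries. Scrublet, a doublet caller, marked 101 and 14 of those that passed, at a score threshold set separately in each library. Its calls included 1 cycling precursor in each library, and none was removed.

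Both groups of precursors held barcodes with genes of other cells. Mural and fibroblast markers, which belong to the pericytes, smooth muscle and connective tissue of vessels, were at 5 or more UMIs per 10000 in 7 ipsilateral and 11 contralateral non-cycling precursors and in none of the cycling ones. The 12 mural markers summed to 7.04 and 7.40 CPM in ipsilateral and contralateral cycling precursors against 528.5 and 1970.6 CPM in non-cycling ones, and 6 and 9 of them were at 0 in the cycling cells. Dlx genes, which mark neuronal progenitors of the ventral forebrain, were at 5 or more UMIs per 10000 in 1 cycling cell of each library and in 4 ipsilateral and 1 contralateral non-cycling precursors. The contralateral Dlx-marked cell was the deepest cycling precursor, with 55821 UMIs. Microglia markers were near absent, at 20.1 and 19.7 CPM summed over 14 genes in cycling cells against 33.3 and 43.8 CPM in non-cycling ones. Leaving out these Dlx-, mural- and fibroblast-marked barcodes was a choice made after seeing the data, and values without them are given beside several results.

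Cells were assigned by the larger of their summed S phase and G2/M genes, each divided by its mean over cycling precursors and without Mki67 and Top2a. Of the ipsilateral cycling precursors 29 of 48 (60.4%, 45.3% to 74.2%) were S-leading, and of the contralateral ones 9 of 25 (36.0%, 18.0% to 57.5%). The intervals overlapped. Among cells with 8 or more UMIs of Mki67 and Top2a, 17 of 28 ipsilateral and 3 of 11 contralateral ones were S-leading. The S phase list held a median of 179.1 UMIs per 10000 in ipsilateral and 137.6 in contralateral S-leading cells, against 27.8 and 26.2 in non-cycling precursors. The G2/M list held 630.4 and 591.1 in G2/M-leading cells against 101.0 and 95.5.

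**Figure D2:**
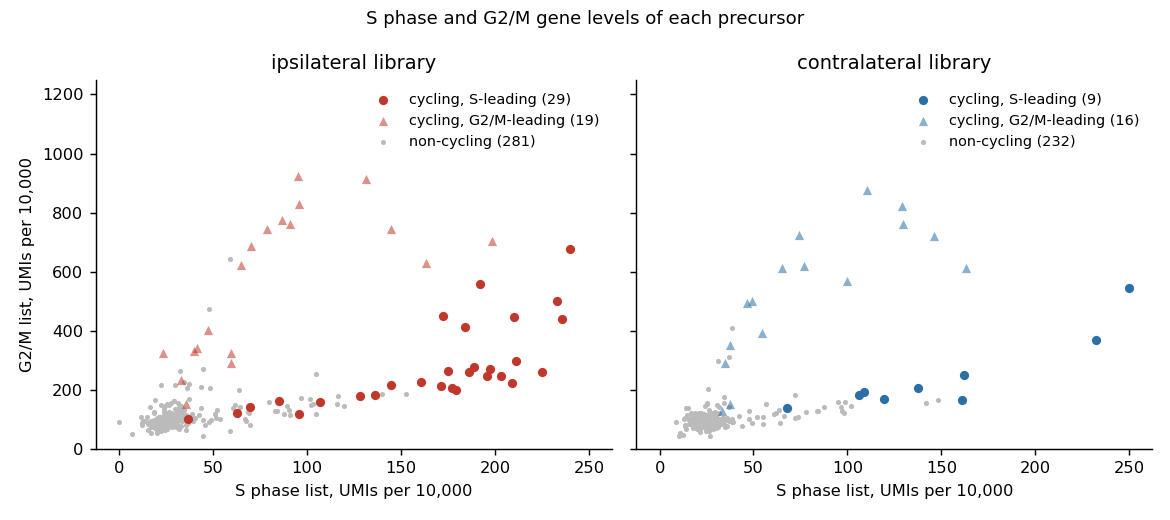
G2/M list against S phase list, both in UMIs per 10000 of the cell, for every precursor of the ipsilateral (left) and contralateral (right) library; circles are S-leading and triangles G2/M-leading cycling precursors, grey points non-cycling ones. Most cycling cells lie along an arm of high S phase or an arm of high G2/M levels, which reach 923 and 876 per 10000, and a few lie within the grey cloud.

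Several genes differed between these arms in the same direction in both libraries. C1ql1 was at 834 CPM in S-leading against 365 CPM in G2/M-leading cells ipsilaterally and at 965 against 299 CPM contralaterally. Cspg4 was at 409 CPM in S-leading against 362 CPM in G2/M-leading cells ipsilaterally and 448 against 372 CPM contralaterally. The intervals of Cspg4 overlapped on both sides. Pdgfra, which the rule also used, ran the other way. It was at 811 CPM in S-leading against 928 CPM in G2/M-leading cells ipsilaterally and 855 against 1301 CPM contralaterally. The intervals of Pdgfra overlapped ipsilaterally but not contralaterally. Mthfd2, a mitochondrial enzyme of one-carbon metabolism, was at 81.1 CPM in S-leading against 30.4 CPM in G2/M-leading cells ipsilaterally and 62.0 against 26.9 CPM contralaterally. Lpl, the lipoprotein lipase that frees fatty acids from lipoproteins, was at 54.6 CPM in S-leading against 14.0 CPM in G2/M-leading cells ipsilaterally and 75.8 against 23 CPM contralaterally. C1ql1, Mthfd2 and Lpl stood higher in S-leading cells of both sides. Higher in G2/M-leading cells was Pax6, a transcription factor of neural stem cells, at 8.81 CPM in S-leading against 74.8 CPM in G2/M-leading cells ipsilaterally and 20.7 against 127 CPM contralaterally. Without the marked barcodes Pax6 was at 20.7 CPM in S-leading against 78.2 CPM in G2/M-leading cells contralaterally. The calmodulin gene Calm2 was at 548 CPM in S-leading against 1188 CPM in G2/M-leading cells ipsilaterally and 476 against 1458 CPM contralaterally. The intermediate filament gene Vim was at 222 CPM in S-leading against 503 CPM in G2/M-leading cells ipsilaterally. Contralaterally Vim was at 82.7 CPM in S-leading against 234 CPM in G2/M-leading cells with every cell, and at 82.7 against 87.9 CPM without the 1 Dlx-marked cell. Sox10, a lineage factor, was at 344 CPM in S-leading against 376 CPM in G2/M-leading cells ipsilaterally and 317 against 368 CPM contralaterally. Its intervals overlapped on both sides, so that no difference of Sox10 beyond counting error was shown. The contralateral S-leading cells were 9 cells with 145103 UMIs, and these genes were chosen after their values were seen.

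Against the non-cycling precursors, the cycling ones had lower levels of Notch readout, matrix and lipid transport genes, and higher medians of RNA processing, one-carbon and sterol genes. A gene entered with at least 40 UMIs over both classes in each library, and counted as higher or lower at 1.5-fold or more in both libraries, after 5 CPM were added to each level. Log2 ratios carry that addition, which draws low genes toward 0; plain ratios of CPM are given with their exact conditional interval. Of 8921 genes, 407 (4.56%) were higher and 446 (5.00%) lower in cycling precursors. Of the 407, 180 were on the S phase, G2/M or histone lists and 143 more were also higher in cycling Dlx-positive progenitors of the same libraries, which left 84. Nes, Mthfd2, Pim1, Lpl and Ddx39, described below, were among these cycle genes, and the gene lists below kept such members. With all such cycle genes aside, 84 of 8194 genes (1.03%) were higher and 438 (5.35%) lower; without the marked barcodes 68 of 7956 (0.855%) were higher and 379 (4.76%) lower, and with cycle genes kept 348 of 8643 (4.03%) and 387 (4.48%). The median log2 ratio over all genes was -0.09 ipsilaterally and -0.08 contralaterally, and 26.3% of all genes were above 0 and 43.4% below 0 in both libraries. These shares, with the 4.56% higher and 5.00% lower, are the background for every count of list members in this comparison. Because the rule chose cells on this contrast, the counts and values are descriptions.

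**Figure D3:**
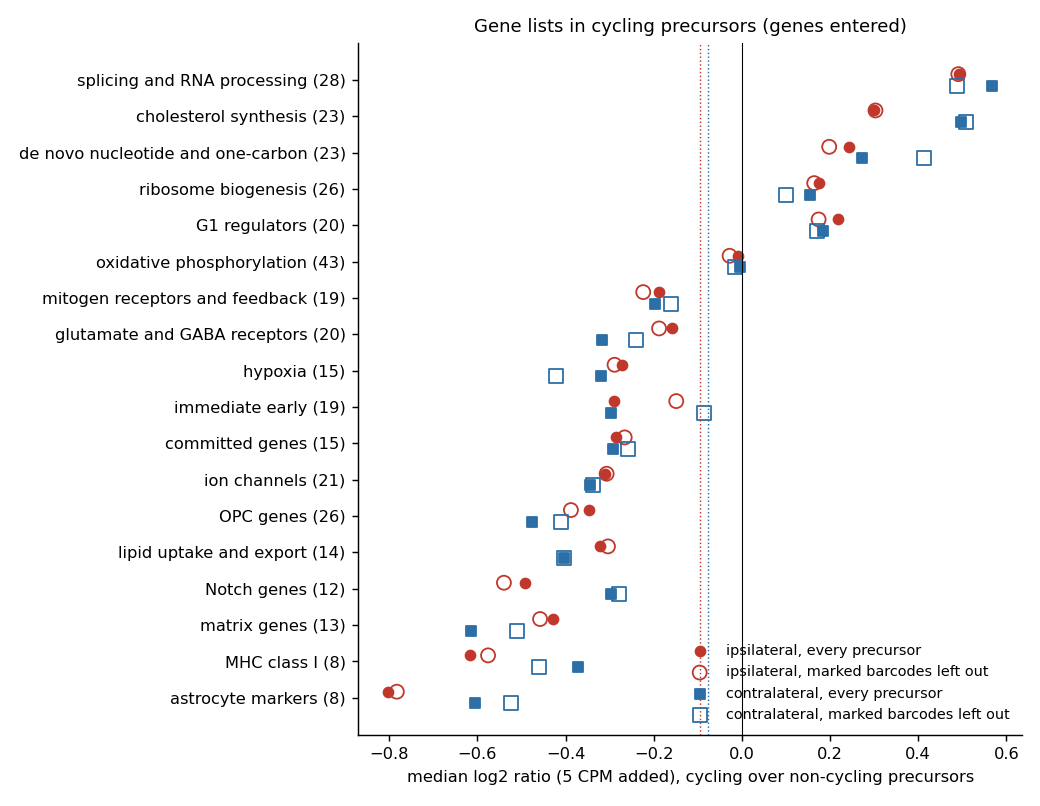
Median log2 ratio, cycling over non-cycling precursors, of 18 gene lists in the ipsilateral (circles) and contralateral (squares) library; open symbols leave out the marked barcodes and dotted lines give the median of all genes. RNA processing stands at 0.49 and 0.57, astrocyte markers at -0.80 and -0.61 and matrix genes at -0.43 and -0.62.

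Genes read out by Notch stood lower in the cycling precursors. Hes5, a repressor induced by Notch, stood at 55.3 CPM (41.6 to 72.0) in ipsilateral cycling precursors against 205 CPM (191 to 220.2) in ipsilateral non-cycling ones, and at 126 CPM (93.6 to 165) against 336 CPM (314 to 361) contralaterally. The ratio of CPM was 0.270 (95% interval 0.201 to 0.355) ipsilaterally and 0.374 (95% interval 0.276 to 0.496) contralaterally. Hes1, the other main Notch-induced repressor, was at 58.3 CPM (44.3 to 75.4) against 221 CPM (206 to 237) ipsilaterally, a ratio of 0.264 (95% interval 0.199 to 0.344). Contralaterally it was at 205 CPM (163 to 254) against 309.9 CPM (288 to 333), a ratio of 0.660 (95% interval 0.520 to 0.829). The contralateral difference of Hes1 was the smaller one, and without the marked barcodes it was under 1.5-fold, with a log2 ratio of -0.34. Nrarp, a feedback inhibitor that Notch induces, was at 57.3 CPM in cycling against 95.4 CPM in non-cycling cells ipsilaterally and 116 against 186 CPM contralaterally. Hey1, a relative of the HES factors, was at 26.1 CPM in cycling against 56.2 CPM in non-cycling cells ipsilaterally and 51.8 against 71.6 CPM contralaterally. For each of these 4 genes the cycling precursors stood below the non-cycling ones of their own library.

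Of 12 Notch genes that entered, 8 were below 0 in both libraries and 3 above, and 3 were at least 1.5-fold lower, 2 without the marked barcodes, against 5.00% of all genes. The medians were -0.49 ipsilaterally and -0.30 contralaterally. The receptor gene Notch1 was above 0 on both sides, with log2 ratios of 0.37 and 0.29. Hey2 ran opposite ways, with -1.82 ipsilaterally and 0.17 contralaterally.

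The promoter of Hes5 is shown because it carries the binding letters of RBPJ, the DNA-binding partner of Notch, and because Hes5 was among the lowest genes of the cycling cells. It is the RefSeq promoter on the plus strand of GRCm38.p6, chr4:154960673-154960972, running from 250 bases before the start site to 50 after it, with matches to GTGGGAA or its reverse complement in capitals.
Hes5: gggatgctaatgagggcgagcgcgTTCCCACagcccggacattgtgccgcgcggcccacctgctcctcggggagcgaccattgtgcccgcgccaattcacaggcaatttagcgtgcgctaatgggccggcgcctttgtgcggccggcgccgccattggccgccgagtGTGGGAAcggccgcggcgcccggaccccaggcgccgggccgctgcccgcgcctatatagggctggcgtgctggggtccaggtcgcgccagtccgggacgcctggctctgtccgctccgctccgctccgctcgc
The 2 matches start 226 and 83 bases before the start site, on opposite strands. Of 32851 promoters of this length, 6.38% held at least 1 match and 0.26% held 2 or more. Among 16 promoters of the 14 listed Notch genes that were found in the table, 3 held a match, those of Hes5, Hey2 and Lfng. Nrarp had none in this window. No promoter of Hes1 or Hey1 was found, so theirs were not scanned.

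Precursor identity genes were lower as a group. Of 26 OPC genes that the rule did not use, 24 were below 0 in both libraries and 1 above 0, with medians of -0.35 ipsilaterally and -0.48 contralaterally. At least 1.5-fold lower were 4, against 5.00% of all genes. Bcan, which encodes the proteoglycan brevican, was at 646 CPM in cycling against 1003 CPM in non-cycling cells ipsilaterally and 582 against 1096 CPM contralaterally. Tnr, the matrix glycoprotein tenascin-R, was at 399 CPM in cycling against 638 CPM in non-cycling cells ipsilaterally and 446 against 686 CPM contralaterally. Ednrb, an endothelin receptor, was at 366 CPM in cycling against 610.0 CPM in non-cycling cells ipsilaterally and 439 against 801 CPM contralaterally, and Megf11 at 70.4 CPM in cycling against 131 CPM in non-cycling cells ipsilaterally and 74.0 against 149 CPM contralaterally. Each of the 4 was lower in cycling cells on both sides. The lineage factor Olig1 was at 1991 CPM in cycling against 2843 CPM in non-cycling cells ipsilaterally and 1935 against 2796 CPM contralaterally, with log2 ratios of -0.51 and -0.53, short of 1.5-fold.

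Matrix genes followed the same direction, with 12 of 13 below 0 in both libraries, medians of -0.43 and -0.62, and 3 at least 1.5-fold lower, 2 without the marked barcodes. Bcan and Tnr, named above among the OPC genes, also encode matrix proteins, so the OPC and matrix lists need not be separate sets. Acan, the proteoglycan aggrecan, was low throughout, at 8.04 CPM in cycling against 17.7 CPM in non-cycling cells ipsilaterally and 17.3 against 29.5 CPM contralaterally. Of 21 ion channel genes 14 were below 0 in both and none above, against 43.4% of all genes below 0, with 3 at least 1.5-fold lower, 4 without the marked barcodes. Kcnj16, an inward rectifier potassium channel subunit, was at 21.1 CPM in cycling against 49.7 CPM in non-cycling cells ipsilaterally and 34.5 against 71.2 CPM contralaterally. Of 20 glutamate and GABA receptor genes 14 were below 0 in both and none above. Gabbr1, a subunit of the metabotropic GABA receptor, was at 118 CPM in cycling against 195 CPM in non-cycling cells ipsilaterally and 121 against 224 CPM contralaterally.

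Most genes of later stages were below 0. Of 15 genes of committed precursors 11 were below 0 in both libraries and 2 above, with medians of -0.29 on both sides; 2 were at least 1.5-fold lower and 1 higher. The higher one, Tmem2, a membrane protein of hyaluronan turnover, was at 35.2 CPM in cycling against 17.7 CPM in non-cycling cells ipsilaterally and 37.0 against 22.3 CPM contralaterally, with a contralateral log2 ratio of 0.41 without the marked barcodes. Lims2, an adaptor of integrin adhesions, was at 104 CPM in cycling against 230.1 CPM in non-cycling cells ipsilaterally and 111 against 192 CPM contralaterally, and Tmem163, a zinc transporter, at 53.3 CPM in cycling against 113 CPM in non-cycling cells ipsilaterally and 81.4 against 153 CPM contralaterally. Of 19 mature oligodendrocyte genes 15 were below 0 in both and none above, and 2 were at least 1.5-fold lower, against 5.00% of all genes. Both are named: Ptgds, a prostaglandin synthase, was at 61.3 CPM in cycling against 109.7 CPM in non-cycling cells ipsilaterally and 24.7 against 42.9 CPM contralaterally, and Apod at 62.3 CPM in cycling against 408 CPM in non-cycling cells ipsilaterally and 32 against 136 CPM contralaterally. The difference of Apod, a lipocalin also made by vessel-associated cells, shrank to log2 ratios of -0.32 and -0.32 without the marked barcodes.

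**Figure D4:**
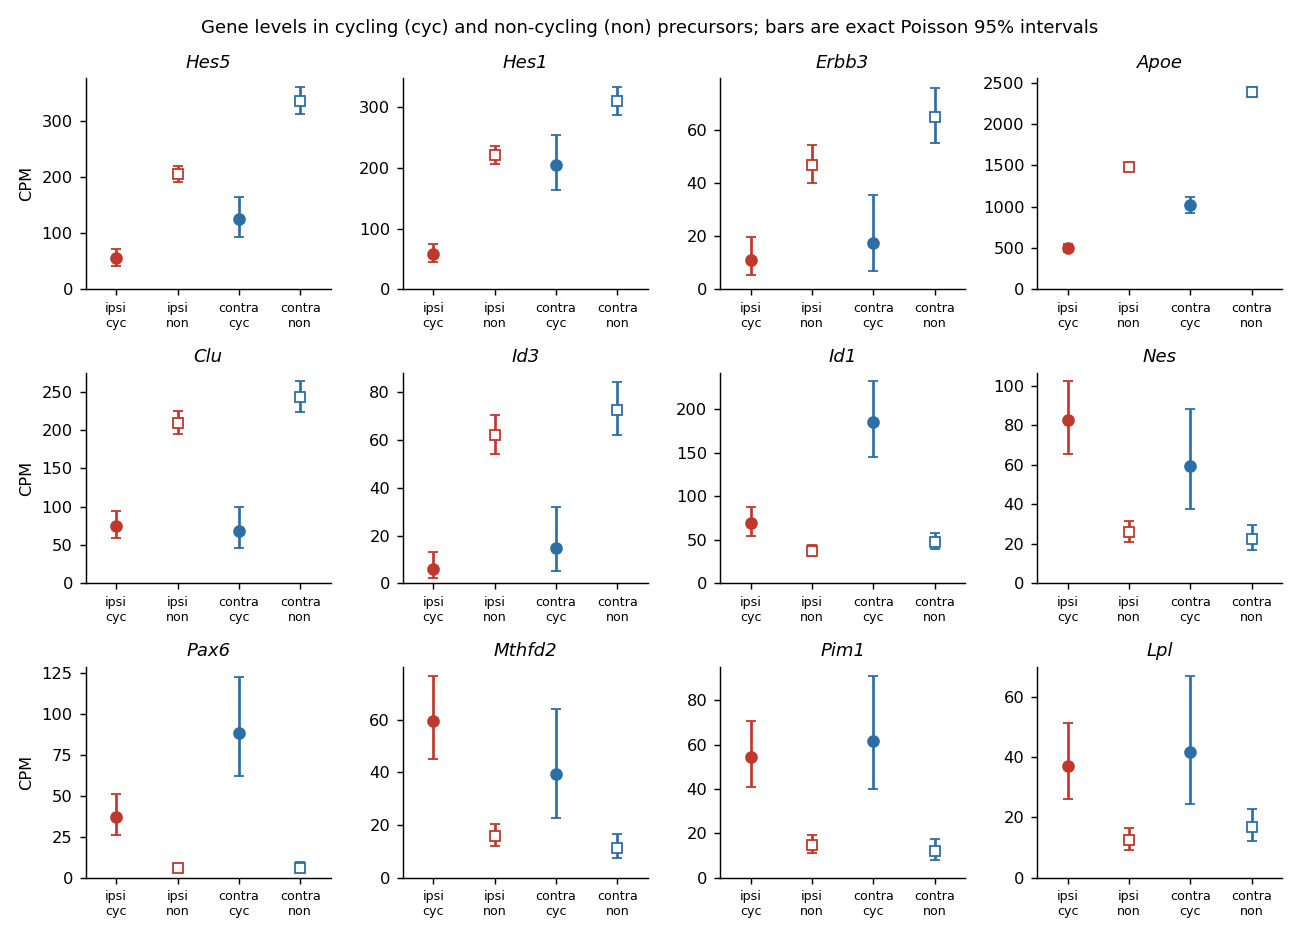
Levels in CPM of 12 genes in ipsilateral (red) and contralateral (blue) cycling (filled) and non-cycling (open) precursors, with exact Poisson intervals; every axis starts at 0. Hes5, Erbb3, Apoe, Clu and Id3 stand lower, and Nes, Pax6, Mthfd2, Pim1 and Lpl higher, in the cycling precursors of both libraries. Nes, Mthfd2, Pim1 and Lpl are among the cycle genes set aside in the ranking of genes.

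Among the receptors and feedback genes of mitogen signalling, Erbb3 stood apart. Erbb3, a receptor for neuregulins, was at 11.1 CPM (5.52 to 19.8) in ipsilateral cycling precursors against 46.8 CPM (40.1 to 54.3) in non-cycling ones, and at 17.3 CPM (6.94 to 35.6) against 64.8 CPM (55 to 75.9) contralaterally. The ratios were 0.236 (95% interval 0.116 to 0.433) and 0.266 (95% interval 0.105 to 0.562). Phlda1, a gene induced by growth factor signalling, was at 277 CPM in cycling against 490.3 CPM in non-cycling cells ipsilaterally and 392 against 592 CPM contralaterally. Of the 19 genes of the list, 10 were below 0 in both libraries and 2 above, and Erbb3 and Phlda1 were the 2 past 1.5-fold; Phlda1 was just short of it contralaterally without the marked barcodes, at -0.58. The medians were -0.19 and -0.20.

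Lipid carriers were lower in the cycling precursors. Apoe, the main apolipoprotein of the brain, was at 499.6 CPM (457 to 545) in ipsilateral cycling precursors against 1478 CPM (1440 to 1518) in non-cycling ones, a ratio of 0.338 (95% interval 0.308 to 0.370). Contralaterally it was at 1018 CPM (922 to 1121) against 2390 CPM (2328 to 2453), a ratio of 0.426 (95% interval 0.385 to 0.471). Clu, which encodes the lipid-carrying chaperone clusterin, was at 75.4 CPM in cycling against 209 CPM in non-cycling cells ipsilaterally and 69.0 against 243 CPM contralaterally. Abca1, a transporter that loads cholesterol onto apolipoproteins, was at 26.1 CPM in cycling against 63.2 CPM in non-cycling cells ipsilaterally and 24.7 against 68.2 CPM contralaterally. Lpl ran the other way, at 37.2 CPM in cycling against 12.4 CPM in non-cycling cells ipsilaterally and 41.9 against 16.8 CPM contralaterally, with ratios of 3.01 (95% interval 1.90 to 4.74) and 2.49 (95% interval 1.32 to 4.49). Of 14 genes of lipid uptake and export 10 were below 0 in both libraries and 2 above, with 4 at least 1.5-fold lower and Lpl higher.

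Of 23 cholesterol synthesis genes 19 were above 0 in both libraries and 1 below, with medians of 0.30 ipsilaterally and 0.50 contralaterally, against 26.3% of all genes above 0. At least 1.5-fold higher in both were 2, against 4.56% of all genes. Among them was Acat2, which makes acetoacetyl-CoA for the pathway, at 89.5 CPM in cycling against 48.7 CPM in non-cycling cells ipsilaterally and 78.9 against 45.5 CPM contralaterally. Acat2 shares 43.8% of its 31-base words with other genes, Impdh2 43.2%, Cks2 31.7%, Ubald2 28.7%, Tmem97 25.6% and Lsm5 24.5%, so that their counts are uncertain. Tmem97, a sterol-regulated membrane protein, was among the highest genes by rule, at 80.4 CPM in cycling against 38.2 CPM in non-cycling cells ipsilaterally and 74.0 against 33.7 CPM contralaterally.

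Genes of RNA processing were higher in most members. Of 28 such genes 27 were above 0 in both libraries and none below, with medians of 0.49 and 0.57, and 5 were at least 1.5-fold higher, 3 without the marked barcodes, against 4.56% of all genes. Ddx39, an RNA helicase of messenger RNA export, was at 82.4 CPM in cycling against 39.5 CPM in non-cycling cells ipsilaterally and 96.1 against 29.9 CPM contralaterally. Lsm5, a subunit of a ring that binds the U6 RNA, was at 198 CPM in cycling against 81.2 CPM in non-cycling cells ipsilaterally and 177 against 91.8 CPM contralaterally. Both were higher in the cycling cells of each side.

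Of 23 genes of nucleotide and one-carbon synthesis 15 were above 0 in both libraries and 3 below, with medians of 0.24 and 0.27, and 4 were at least 1.5-fold higher, 3 without the marked barcodes. Mthfd2 was at 59.3 against 15.9 CPM ipsilaterally, a ratio of 3.74 (95% interval 2.56 to 5.46), and at 39.4 against 11.4 CPM contralaterally, a ratio of 3.47 (95% interval 1.75 to 6.67). Dctpp1, which clears non-canonical cytosine nucleotides, was at 139.7 CPM in cycling against 73.4 CPM in non-cycling cells ipsilaterally and 91.2 against 51.8 CPM contralaterally. Paics, an enzyme of purine synthesis, was at 183 CPM in cycling against 114 CPM in non-cycling cells ipsilaterally and 165 against 92.6 CPM contralaterally, and Impdh2, which makes the guanine branch, at 141 CPM in cycling against 87.4 CPM in non-cycling cells ipsilaterally and 148 against 70.7 CPM contralaterally. Ribosome biogenesis genes stood nearer the other genes, with 15 of 26 above 0 in both libraries, medians of 0.18 and 0.16 and none past 1.5-fold. Oxidative phosphorylation genes had medians of -0.01 and 0.00 over 43 genes. Among 20 regulators of G1, Ccng2, a cyclin linked to cell cycle arrest, was at 37.2 CPM in cycling against 14.8 CPM in non-cycling cells ipsilaterally and 46.8 against 16 CPM contralaterally. Pim1, a serine/threonine kinase induced by STAT signals, was at 54.3 CPM in cycling against 14.8 CPM in non-cycling cells ipsilaterally and 61.6 against 12.2 CPM contralaterally, with ratios of 3.67 (95% interval 2.47 to 5.44) and 5.05 (95% interval 2.83 to 8.93). Of 11 STAT3 pathway genes that entered, 1 was above 0 and 4 were below 0 in both libraries. Their medians were -0.45 ipsilaterally and 0.12 contralaterally.

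Genes of neural stem cells stood on both sides of 0. Nes, which encodes the intermediate filament nestin, was at 82.4 against 26.1 CPM ipsilaterally, a ratio of 3.16 (95% interval 2.33 to 4.29), and at 59.2 against 22.7 CPM contralaterally, a ratio of 2.60 (95% interval 1.54 to 4.28). Pax6 was at 37.2 CPM in cycling against 5.65 CPM in non-cycling cells ipsilaterally and 88.7 against 5.89 CPM contralaterally, with ratios of 6.59 (95% interval 3.76 to 11.8) and 15.1 (95% interval 7.92 to 30.2). Its UMIs came from 14 of 48 ipsilateral and 9 of 25 contralateral cycling cells, the top cell holding 35.1% and 47.2%, and the log2 ratios were 2.04 and 2.58 without the marked barcodes. Of the 15 genes of the list, 5 were above and 7 below 0 in both libraries.

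The Id genes, inhibitors of neurogenic transcription factors induced by BMP signals, split. Id3 was at 6.03 CPM in cycling against 62.1 CPM in non-cycling cells ipsilaterally and 14.8 against 72.4 CPM contralaterally, from 6 and 6 UMIs in the cycling cells, while Id1 was at 69.4 CPM in cycling against 37.4 CPM in non-cycling cells ipsilaterally and 185 against 48.0 CPM contralaterally. Id3 was lower and Id1 higher in the cycling precursors of both libraries. Without the marked barcodes the log2 ratios of Id3 were -2.24 and -0.96, against -2.60 and -1.97 with them.

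Neural progenitor and neuroblast markers depended on the Dlx-marked cells. With every cell, 8 of 11 were above 0 in both libraries, with medians of 0.64 and 0.82; without the marked barcodes 3 of 8 were, with medians of -0.16 and -0.29. Stmn2, a tubulin regulator of neurons, had all of its ipsilateral and 93.1% of its contralateral cycling UMIs in 1 cell, and Cd24a, a neuroblast surface protein, 50% and 94.4%. Sox11 stayed higher, with log2 ratios of 0.70 and 1.52 with every cell and 0.54 and 0.68 without the marked ones. Astrocyte markers were below 0 in both libraries in 7 of 8 genes; Aldoc, a glycolytic enzyme, was at 53.3 CPM in cycling against 122 CPM in non-cycling cells ipsilaterally and 37.0 against 126 CPM contralaterally. Of 8 MHC class I genes all were below 0 in both libraries, with medians of -0.62 and -0.37, and H2-K1 was at 38.2 CPM in cycling against 68.3 CPM in non-cycling cells ipsilaterally and 22.2 against 67.4 CPM contralaterally. H2-K1 shares 22.8% of its 31-base words with other genes.

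Of the 12 genes with the highest ratio outside the cycle genes, those not yet described included Fam110a, a centrosome-associated protein, at 50.3 CPM in cycling against 19.9 CPM in non-cycling cells ipsilaterally and 61.6 against 17.7 CPM contralaterally. Pbx4, a homeobox factor, was at 37.2 CPM in cycling against 14.2 CPM in non-cycling cells ipsilaterally and 49.3 against 17.3 CPM contralaterally, Iqgap2, a scaffold of the cytoskeleton, at 43.2 CPM in cycling against 20.2 CPM in non-cycling cells ipsilaterally and 69.0 against 20.6 CPM contralaterally, and Ubald2 at 212 CPM in cycling against 99.2 CPM in non-cycling cells ipsilaterally and 244 against 91.4 CPM contralaterally. These 4 were higher in both libraries with and without the marked barcodes. Brip1os, at 63.3 CPM in cycling against 23.4 CPM in non-cycling cells ipsilaterally and 83.8 against 35.8 CPM contralaterally, is antisense to the cycle gene Brip1, and without a stated strand setting reads of the pair cannot be told apart. Pih1d1, Sac3d1, Ccng2, Tmem97, Stmn2, Cd24a and Pax6 complete the 12.

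The 12 genes with the lowest ratio were mostly genes of vessel cells: Vtn, Rgs5, Acta2, Tagln, Myl9, Igfbp7, Ctgf, Hspb1, Col1a2, Crip1, Itih5 and Sparc. Rgs5, a pericyte marker, was at 1.01 and 2.47 CPM in ipsilateral and contralateral cycling precursors against 103 and 540.2 CPM in non-cycling ones, with 1 UMI in each of the cycling groups. Without the 7 and 11 marked barcodes of the non-cycling precursors, no gene of the mural list reached the minimum of UMIs. The 12 lowest without those barcodes were Hes5, Trnp1, Pnlip, Erbb3, Pcp4, Clu, Gpld1, Inpp4b, Tmem86a, Dusp15, Tmem150a and Rhcg. Trnp1, a nuclear protein that regulates progenitor division in the cortex, was at 24.1 CPM in cycling against 88.2 CPM in non-cycling cells ipsilaterally and 54.2 against 176 CPM contralaterally. Pcp4, a calmodulin-binding peptide, was at 33.2 CPM in cycling against 99.7 CPM in non-cycling cells ipsilaterally and 27.1 against 212 CPM contralaterally, and both genes were lower on both sides.

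Between the sides, ipsilateral cycling precursors had more S phase and one-carbon genes and lower Notch and growth factor genes than contralateral ones, as medians of lists. These medians had the same sign in non-cycling precursors and were smaller in size there. A gene entered with at least 40 UMIs over the cycling cells of both libraries. Lists compared between sides kept members that the rule used, unless stated otherwise. Of 6283 genes 346 (5.51%) were at least 1.5-fold higher and 490 (7.80%) lower ipsilaterally, and with cycle genes aside 285 of 5527 (5.16%) were higher and 426 (7.71%) lower. In the non-cycling precursors, which held more cells, 166 of 10707 genes (1.55%) were higher and 338 (3.16%) lower. Without the marked barcodes 356 of 6059 genes (5.88%) were higher and 541 (8.93%) lower in cycling precursors, 288 of 5324 (5.41%) and 495 (9.30%) with cycle genes aside, and 166 of 10459 (1.59%) and 253 (2.42%) in non-cycling ones. The median over all genes was -0.05 in both classes, and 44.7% of genes were above 0 in cycling and 41.2% in non-cycling precursors. These shares, with the 5.51% higher and 7.80% lower in cycling precursors, are the background for the counts of lists between sides. Whether a side difference was larger in cycling than in non-cycling precursors was not tested.

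**Figure D5:**
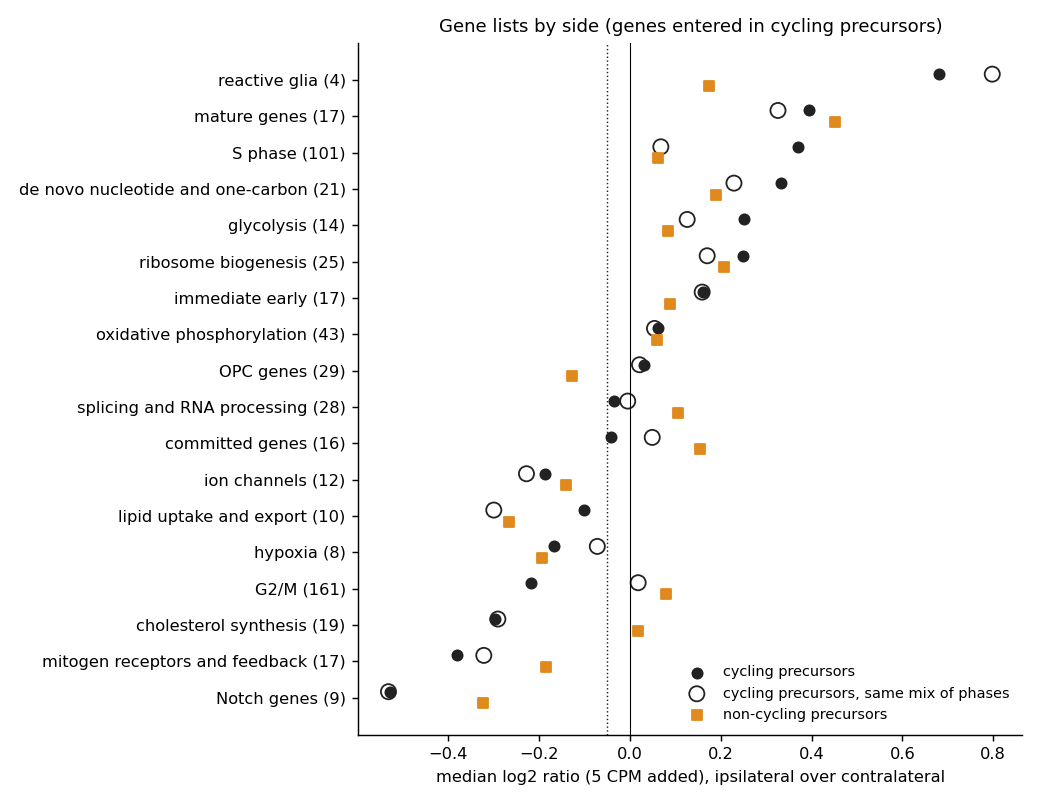
Median log2 ratio, ipsilateral over contralateral, of 18 gene lists in cycling (filled circles) and non-cycling (squares) precursors; open circles give the 2 libraries 1 common mix of S-leading and G2/M-leading cells, and the dotted line is the median of all genes in cycling precursors. Notch genes stand lowest in cycling precursors at -0.53, with -0.32 in non-cycling ones. The S phase list, which also assigned the phases, stands at 0.07 at the same mix of phases. All lists shown keep members that the rule used.

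The S phase and G2/M lists differed between sides in opposite directions. Of 101 S phase genes 79 were above 0 in cycling precursors, with a median of 0.37, and 25 were at least 1.5-fold higher. Chaf1b, a subunit of the factor that loads histones onto new DNA, was at 57.3 CPM in ipsilateral against 22.2 CPM in contralateral cycling precursors, a ratio of 2.58 (95% interval 1.27 to 5.93). Of 161 G2/M genes 120 were below 0, with a median of -0.22; Cks2, a partner of cyclin-dependent kinases, was at 247 CPM ipsilaterally against 518 CPM contralaterally. At the same mix of S-leading and G2/M-leading cells in the 2 libraries the medians were 0.07 and 0.02. These lists also assigned the phases, so a move of their medians toward 0 at this mix was partly built in. Genes of nucleotide and one-carbon synthesis kept a median of 0.23 at that mix, against 0.33 without it, with 16 of 21 above 0. Their median was 0.19 in non-cycling precursors, with 20 of 27 above 0, and 0.21 in cycling ones without the marked barcodes. Shmt1, a serine hydroxymethyltransferase that supplies one-carbon units, was at 48.2 CPM ipsilaterally against 9.86 CPM contralaterally, from 48 and 4 UMIs, a ratio of 4.89 (95% interval 1.79 to 18.7). In non-cycling precursors its log2 ratio was 0.88.

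Most Notch genes were lower ipsilaterally within the cycling precursors. Of 9 that entered, 1 was above 0, and the median of -0.53 was also -0.53 at the same mix of phases. At least 1.5-fold lower were 4, against 7.80% of all genes, and 1 was at least 1.5-fold higher, the ligand gene Dll3, at 122 CPM ipsilaterally against 78.9 CPM contralaterally. Hes1 was at 58.3 CPM (44.3 to 75.4) in ipsilateral against 205 CPM (163 to 254) in contralateral cycling precursors, a ratio of 0.285 (95% interval 0.2 to 0.403), from 21 of 48 and 17 of 25 cells with a UMI. Hes5 was at 55.3 CPM ipsilaterally against 126 CPM contralaterally, a ratio of 0.440 (95% interval 0.295 to 0.657), Nrarp at 57.3 CPM ipsilaterally against 116 CPM contralaterally and Hey1 at 26.1 CPM ipsilaterally against 51.8 CPM contralaterally. A single cell held 33.3% of the contralateral UMIs of Hes5, and without the marked barcodes Hes5 was at 49.5 CPM ipsilaterally against 97.2 CPM contralaterally. In non-cycling precursors the list had a median of -0.32, and the log2 ratios were -0.48 for Hes1, -0.70 for Hes5, -0.93 for Nrarp and -0.32 for Hey1. Each of these 4 genes was lowest in the ipsilateral cycling cells among the 4 groups.

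Growth factor genes were lower ipsilaterally as well. Of 17 mitogen receptor and feedback genes 4 were above 0 in cycling precursors, with a median of -0.38 and of -0.32 at the same mix of phases, against -0.18 in non-cycling ones. Dusp6, a phosphatase induced by ERK signalling, was at 73.4 CPM ipsilaterally against 113 CPM contralaterally, a ratio of 0.647 (95% interval 0.441 to 0.957), and Etv4, a transcription factor induced by FGF signals, at 54.3 CPM ipsilaterally against 88.7 CPM contralaterally. Shc4, an adaptor of receptor tyrosine kinases, was at 62.3 CPM ipsilaterally against 113 CPM contralaterally. Vegfa, the vascular growth factor, was at 25.1 CPM ipsilaterally against 113 CPM contralaterally, but 1 cell held 69.6% of its contralateral UMIs. Id1 was at 69.4 CPM ipsilaterally against 185 CPM contralaterally, a ratio of 0.375 (95% interval 0.267 to 0.527), with the top cells holding 10.1% and 16%.

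Apoe was lower ipsilaterally in cycling precursors. Apoe was at 499.6 CPM ipsilaterally against 1018 CPM contralaterally, a ratio of 0.491 (95% interval 0.430 to 0.560), and its log2 ratio of -1.02 compared with -0.69 in non-cycling precursors. Of 19 cholesterol synthesis genes 4 were above 0, with a median of -0.30 and of -0.29 at the same mix of phases, against 0.02 in non-cycling precursors. Fdft1, which makes squalene, was at 63.3 CPM ipsilaterally against 106 CPM contralaterally. It was the 1 gene of the 19 at least 1.5-fold lower, against 7.80% of all genes.

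Genes of mature oligodendrocytes were higher ipsilaterally in both classes of precursors. Of 17 that entered, 14 were above 0 in cycling precursors with a median of 0.39, against 0.45 in non-cycling ones. The rule did not use 25 of the 28 genes of this list, and the rest were kept in these medians where they entered. Mbp, which encodes myelin basic protein, was at 296 CPM ipsilaterally against 170.1 CPM contralaterally, Cldn11, the claudin of myelin, at 167 CPM ipsilaterally against 88.7 CPM contralaterally, and Ptgds at 61.3 CPM ipsilaterally against 24.7 CPM contralaterally. Bcas1, a gene of early myelinating cells on the committed list, was at 339.7 CPM ipsilaterally against 168 CPM contralaterally, a ratio of 2.03 (95% interval 1.56 to 2.67). Their log2 ratios in non-cycling precursors were 0.50, 1.13, 1.26 and 0.86. Mature oligodendrocytes were in the same libraries, and the part of free RNA in these values was not tested. The 26 OPC genes that the rule did not use had a median of 0.04, none of them past 1.5-fold.

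Of 22 reactive glia genes 4 entered, and all 4 were above 0, with a median of 0.68. Over alternative settings this median ran from 0.13 to 0.93. In non-cycling precursors 13 genes entered, with a median of 0.175. Of those 13, 4 were at least 1.5-fold higher and 3 lower ipsilaterally. S100a10, a partner of annexin A2, was at 55.3 CPM ipsilaterally against 22.2 CPM contralaterally, a ratio of 2.49 (95% interval 1.22 to 5.74), and Vim at 343 CPM ipsilaterally against 180.0 CPM contralaterally. The Dlx-marked cell held 58.9% of the contralateral UMIs of Vim, and without the marked barcodes its log2 ratio was 1.96 against 0.91 with them. Immediate early genes varied: Junb was at 888 CPM ipsilaterally against 454 CPM contralaterally and Zfp36 at 51.3 CPM ipsilaterally against 17.3 CPM contralaterally, higher ipsilaterally, while Ier5 was at 60.3 CPM ipsilaterally against 145 CPM contralaterally, lower ipsilaterally. The list had a median of 0.16, with 11 of 17 genes above 0.

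The genes highest ipsilaterally by rule rested on few contralateral UMIs. Pi4k2a, a lipid kinase, was at 37.2 CPM ipsilaterally against 7.40 CPM contralaterally, from 37 and 3 UMIs, a ratio of 5.03 (95% interval 1.59 to 25.5). Atad3a, a mitochondrial membrane ATPase, was at 59.3 CPM ipsilaterally against 14.8 CPM contralaterally, a ratio of 4.01 (95% interval 1.74 to 11.4), and Bcl2, the inhibitor of apoptosis, at 44.2 CPM ipsilaterally against 12.3 CPM contralaterally, a ratio of 3.59 (95% interval 1.43 to 11.6). The other genes of the 12 highest were Ubac1, Litaf, Acsl1, Prps1, Rnpc3, Naa25, Snn, Banp and Pbld1, the last with 96.4% of its ipsilateral UMIs in 1 cell and 0 contralaterally. Of the 12 lowest, 1 cell each held 96.5% of the contralateral UMIs of Dlx1, 90.9% of those of Ccnd2, 62.1% of Txndc16, 52.4% of Dcaf17 and 51.6% of Thap1. Hes1, Gpatch11, Cdc14a, Pcyox1, Arrdc3 and Spty2d1 were also among them. Arrdc3, an arrestin-like adaptor, was at 24.1 CPM ipsilaterally against 71.5 CPM contralaterally, and in non-cycling precursors at 33.1 CPM ipsilaterally against 39.6 CPM contralaterally.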

How the data were processed

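The deposited files hold counts, UMIs per gene and barcode for 31053 genes, from 10x Genomics libraries processed by the authors with Cell Ranger 3.1.0 and mm10, per the submitters' processing notes. Whether counting used strand is not given in the sources used here. In all, the ipsilateral library held 54788795 UMIs in 2775 barcodes (median 17607) and the contralateral library 36063045 UMIs in 2066 (median 13238.5). UMI counts were summed per library and class with Python 3.11.15, pandas 2.3.3 and numpy 2.4.6, and divided into CPM; intervals came from scipy 1.17.1 (exact Poisson, Clopper-Pearson, and conditional binomial for ratios). Scrublet in scanpy 1.11.5, at an expected rate of 0.05, marked 4.03% of ipsilateral and 0.73% of contralateral barcodes passing the filter, and its calls were left out only as an alternative. It set its score threshold in each library, at 0.154 ipsilaterally and 0.274 contralaterally, so these shares cannot be compared directly. With 1 library a side there was no test and no p-value, and free RNA was not subtracted.

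Members and gene lists were chosen with earlier results of these data known. Named genes were the 12 highest and 12 lowest in each comparison with at least 40 UMIs and 20 CPM in a class, cycle genes aside, ranked between classes by the smaller of the libraries' log2 ratios; genes named beyond that rule were list members, or were chosen after their values were seen; some genes are not reported here. Barcodes were Dlx-marked, or mural- or fibroblast-marked, at 5 or more UMIs per 10000 of those markers. Sums were tested on simulated counts of cycling and non-cycling precursors, with counting error only. Of genes raised by 2.0-fold, 49 of 52 in the ipsilateral library and 38 of 43 in the contralateral one passed 1.5-fold the right way. Of genes lowered to 0.5-fold, 33 of 45 and 45 of 57 did, ipsilateral first. Of unchanged genes, 253 of 9947 and 791 of 8772 passed 1.5-fold as well. The comparison between sides was not simulated. Of 246 genes checked against GENCODE transcripts, 26 shared over 20% of their 31-base words with another gene. Alternatives changed the cut, the addition, the minimum, the cell filter, doublets, depth and the cells entered.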

Additional observations from a re-analysis of the deposited data

Results flagged for a closer look

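Sox9, a transcription factor of glial progenitors, ran in opposite directions in the 2 libraries. It was at 6.03 CPM in ipsilateral cycling against 19.9 CPM in ipsilateral non-cycling precursors, a log2 ratio of -1.17, and at 76.4 against 14.7 CPM contralaterally, a log2 ratio of 2.04. The contralateral level came from 31 UMIs in 7 cycling cells, 1 of which held 38.7%. The ipsilateral minus the contralateral ratio was -3.22, and the difference was not tested.

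Thap1, a zinc finger protein, was at 20.1 CPM in ipsilateral cycling against 33.9 CPM in ipsilateral non-cycling precursors, a log2 ratio of -0.63, and at 76.4 against 29.5 CPM contralaterally, a log2 ratio of 1.24. A single cell held 51.6% of the contralateral cycling UMIs. The ratios differed by -1.87, ipsilateral minus contralateral, and the difference was not tested.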

How the results depend on the processing

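Of 1363 recomputed list medians 1252 moved by less than their spread, 101 moved further and 10 changed sign; of 6460 recomputed gene ratios 6305, 141 and 14 did. The contralateral cycling share was 5.84% at a cut of 5 UMIs. With 20 CPM added, 168 genes were lower in cycling precursors, and 165 were higher and 235 lower ipsilaterally. With no minimum of UMIs, 696 and 734 genes were higher and lower in cycling precursors and 1417 and 1661 ipsilaterally; with at least 100 UMIs the counts were 194, 250, 85 and 119. For neural progenitor markers the side median was 0.11 with cells weighted equally and 0.12 without the Dlx-marked or all marked cells, and the cycling medians were -0.14 and -0.25 without Dlx-marked cells and -0.16 and -0.29 without all marked ones, ipsilateral before contralateral. The BMP and Id side median was 0.16 at a cut of 5 and 0.26 without cells holding a microglia UMI, and the G2/M side median 0.018 at the same mix of phases. Cycling over non-cycling, Bambi was -0.27 contralaterally at a cut of 5, and Ccnd2 -0.90 contralaterally without Dlx-marked cells or the top cell and -0.68 without all marked cells; its side ratio was then 0.84. Without the top cell Stmn2 was -1.14 and -0.14, and Cd24a -1.10 contralaterally. Igfbp2 was 0.17 ipsilaterally without mural-marked and 0.24 without all marked barcodes, where Cebpb was 0.028 and 0.15. The cause of these changes was not tested. The contralateral cycling cells held 405650 UMIs, and with 1 library a side the spread between animals is unknown. No paired analysis was possible because each side has 1 library.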
